A study of Rattus norvegicus with 27 samples.

Results

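The genes described here are those of the rat major histocompatibility complex (MHC), whose symbols begin with RT1-, and 10 genes that serve antigen processing and MHC regulation, namely B2m, Cd74, Ciita, Nlrc5, Tap1, Tap2, Tapbp, Psmb8, Psmb9 and Psmb10. Every RT1 row of the count table with a read in any library was taken, which gave 38 RT1 genes and, with the 10 accessory genes, 48 of 36865 rows. By symbol, 29 of the RT1 genes belong to class I and 9 to class II. A further 14 RT1 rows had no read in any library, 13 of them pseudogenes and the last one RT1-Ha. RT1-A3, RT1-CE2 and 13 more RT1 genes of the RefSeq list had no row of their own and were not analysed here.

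RNA was sequenced from the medial prefrontal cortex (mPFC) of 27 adult male Wistar rats from Charles River, with 1 library per rat. The rats had gone through repeated anxiety tests (elevated plus-maze, light-dark box and open field), were picked to span the ranking of a composite anxiety score, and were decapitated in a resting state straight from the home cage. They form 1 group with no control group, so the question asked of the MHC genes is how high they were, how much they differed between rats, and which of them moved together. Wistar rats are an outbred stock, no behavioral score entered the analysis, and the sample labels give learned helplessness as the treatment and list acoustic startle and fear conditioning, which the paper does not describe for these rats.

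MHC class I molecules sit on nearly every nucleated cell and show peptides made inside the cell to cytotoxic T cells. Their heavy chain pairs with beta-2-microglobulin (B2m), the immunoproteasome subunits Psmb8, Psmb9 and Psmb10 cut the peptides, the Tap1 and Tap2 transporter carries them into the endoplasmic reticulum, and tapasin (Tapbp) helps load them. Class II molecules are pairs of an alpha and a beta chain (RT1-Ba with RT1-Bb, RT1-Da with RT1-Db1) on professional antigen-presenting cells, where the invariant chain (Cd74) guards the groove and the RT1-DM pair exchanges it for a peptide. In healthy brain, class II is known mainly from macrophages and dendritic cells of the borders and vessels rather than from neurons.

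The known switch of class II genes is a pair of promoter elements, the X and Y boxes, read by the RFX factors, NF-Y and the coactivator Ciita, and class I genes carry related boxes and an interferon response element. The letters were searched on both strands of the 250 bases before the gene start in RefSeq promoters of the GRCr8 assembly, which come from the inbred BN/NHsdMcwi strain and not from these rats, and 41 of the 48 genes had a promoter there. The X box core AACNGATG was present in 4 of 8 class II promoters, 0 of 25 class I promoters, 0 of 8 accessory promoters and 2.17% of all 33469 promoters. The Y box core GATTGG was present in 8 of 8 class II, 11 of 25 class I, 1 of 8 accessory and 13.3% of all promoters, and the letters of both cores together in 0.254% of all promoters. In RT1-Da, RT1-Db1, RT1-Db2 and RT1-DOb the 2 cores were separated by 19 to 22 bases. Class II windows are printed, cores in capitals, so that the spacing can be compared among the 4 genes that held both and RT1-Ba, RT1-Bb and RT1-DMa, which held the Y core only, as did RT1-DOa (not printed).
RT1-Da: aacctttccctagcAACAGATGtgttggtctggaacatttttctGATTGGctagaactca
RT1-Db1: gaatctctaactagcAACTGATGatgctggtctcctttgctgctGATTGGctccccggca
RT1-Db2: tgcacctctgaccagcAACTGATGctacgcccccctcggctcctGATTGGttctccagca
RT1-DOb: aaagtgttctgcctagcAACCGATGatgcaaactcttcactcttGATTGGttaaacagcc
RT1-Ba: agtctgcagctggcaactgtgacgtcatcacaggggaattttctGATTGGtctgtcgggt
RT1-Bb: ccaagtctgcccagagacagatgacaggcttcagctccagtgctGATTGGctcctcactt
RT1-DMa: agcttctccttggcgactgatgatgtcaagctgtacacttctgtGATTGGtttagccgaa
In GRCr8 these 60-base windows lie upstream of the gene start at chr20:4515321-4515380 on the plus strand (RT1-Da), chr20:4560228-4560287 (RT1-Db1), chr20:4541698-4541757 (RT1-Db2) and chr20:4627592-4627651 (RT1-DOb) on the minus strand, chr20:4576969-4577028 on the plus strand (RT1-Ba), and chr20:4604165-4604224 (RT1-Bb) and chr20:4712385-4712444 (RT1-DMa) on the minus strand.

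The class I side is shown by B2m, which held an interferon response element (GAAA, any 2 bases, GAAA) and a Y core, and by the pair of RT1-A2 and RT1-O1, a classical class I gene and the class I gene that varied most here. The interferon element was present in 5 of 8 accessory promoters (B2m, Tap1, Tap2, Tapbp and Psmb10), 3 of 25 class I promoters, 0 of 8 class II promoters and 3.41% of all promoters. Tapbp and Psmb10 held it more than once, and the copies of Tapbp overlap each other.
B2m: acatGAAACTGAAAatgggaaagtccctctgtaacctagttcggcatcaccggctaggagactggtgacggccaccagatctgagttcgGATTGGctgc
RT1-A2: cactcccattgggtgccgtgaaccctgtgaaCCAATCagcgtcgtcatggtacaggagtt
RT1-O1: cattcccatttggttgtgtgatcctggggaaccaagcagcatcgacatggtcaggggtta
Capitals mark the interferon element and the Y core, which is read as CCAATC where it lies on the opposite strand. The B2m window is chr3:129549176-129549274, and those of RT1-A2 and RT1-O1 are chr20:4872784-4872843 and chr20:2659829-2659888, all on the plus strand. Set side by side letter by letter, with no gap allowed, the RT1-A2 and RT1-O1 windows differed at 18 of 60 bases, and the difference inside the core was T5G, counted from 1 at the 5′ end of the core in RT1-A2. A match or its absence describes these letters only and does not show whether a factor binds.

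Between 4907255 and 12771309 reads per library were counted on genes. The 16 libraries whose number runs up to 31 had 4907255 to 8568317 reads and the 11 libraries numbered from 32 had 9404220 to 12771309, so number and depth cannot be told apart. The labels do not say what the number stands for, and the study's male Wistar rats came from more than one cohort, to which no label ties a library. The counts were divided by size factors (the median-of-ratios method) and are called normalized counts below. They are not scaled by transcript length, so a level is compared between libraries for 1 gene and not between genes. Markers of neurons fitted the cortical label, with Snap25, Syt1, Slc17a7 and Gad1 summing to 35427 to 47036 normalized counts per library, and 8 microglial markers summing to 2671 to 3905. B cell markers were low, with a sum of 0 to 6.63. Cd79a had no read in any library, which was not read as absence. In whole tissue, fewer cells of a type and less RNA per cell cannot be told apart.

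Class I genes were read in every library. Together they took 971 to 2457 reads per library, with a median of 0.0186% of all counts, and their summed normalized counts were 1664 ± 309 (SD, n = 27), a 2.01-fold range between the lowest and the highest rat. Of the 29 class I genes, 20 had a mean of at least 10 reads. The class I gene with most reads was RT1-S3, a nonclassical gene, whose normalized count had a lowest value of 261, a median of 334 and a highest value of 551. The classical genes RT1-A2 and RT1-A1, which present peptides to cytotoxic T cells, ranged from 112 through a median of 177 to 280 and from 85.05 through 154 to 226. Both spread over a 2.50- and a 2.66-fold range without a wide step, the largest gap between neighbouring libraries being 0.16 and 0.20 on the log2 scale (3 or more libraries on each side). Other class I genes ranged far more widely, RT1-O1 over 66.1-fold, RT1-M1-4 over 51.8-fold and RT1-M1-2 over 37.5-fold, the widest ranges of the 34 members with a mean of at least 10 reads. Single libraries weigh on these, as RT1-M1-4 spans 18.2-fold without rn-39, which holds 1 read, and RT1-O1 32.5-fold without rn-3. Without both rn-39 and rn-47, RT1-M1-4 ran only from 11.3 to 40.1 and RT1-M1-2 from 18.2 to 87.2 normalized counts. At the other end, RT1-CE3, RT1-M4, RT1-T24-2, RT1-M5, RT1-M2, RT1-CE6, RT1-T18, RT1-M10-1 and RT1-M1-5 stayed under a mean of 10 reads, and RT1-M1-5 had reads in 1 library only. Class I genes are paralogs, so reads that fit more than one of them may have been split or dropped, and the count of any single one is uncertain.

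Class II genes together had fewer reads than class I genes, with 9 genes against 29. The 9 took 213 to 749 reads per library, with a median of 0.00368% of all counts. Their summed normalized counts were 327 ± 111 (SD, n = 27), a 3.04-fold range. Among genes with a mean of at least 10 reads, the median of the mean normalized counts was 45.5 for class II and 53.5 for class I. These values are not scaled by transcript length. RT1-DMa and RT1-DMb, the 2 chains of the peptide exchanger, ranged from 78.5 through a median of 111 to 187 and from 38.4 through 57.0 to 72.7. The chains of the presenting molecules spread much further. RT1-Da, the alpha chain of the D pair, ranged from 4.65 through 35.5 to 121, and its partner RT1-Db1 from 1.55 through 17.2 to 54.7. RT1-Ba, the alpha chain of the B pair, ranged from 6.97 through 42.2 to 154, and its partner RT1-Bb from 4.21 through 38.0 to 119. Between the lowest and the highest rat these 4 genes thus differed 22.2- to 35.3-fold, against 2.38-fold for RT1-DMa and 1.89-fold for RT1-DMb. The widest of these, that of RT1-Db1, rests on 2 reads in rn-34 and is 14.1-fold without that library. RT1-Db2, RT1-DOb and RT1-DOa had means under 10 reads, and RT1-DOa had no read in 16 libraries.

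Among the accessory genes, B2m took most reads, with normalized counts from 1936 through a median of 2265 to 3312, a 1.71-fold range. Cd74 ranged from 34.9 through 152 to 356, a 10.2-fold range, the widest of the accessory genes with at least 10 reads. The peptide transporter genes Tap1 and Tap2 ranged from 37.2 through 54.3 to 87.2 and from 29.5 through 57.8 to 85.6. Tapbp, the tapasin gene, was among the steadiest at 129 through 151 to 191. The immunoproteasome genes Psmb10, Psmb9 and Psmb8 had mean normalized counts of 210 ± 29.5, 32.6 ± 6.77 and 29.7 ± 10.2 (SD, n = 27). Ciita, the class II coactivator, had a mean of 2.68 ± 2.22 and no read in 3 libraries. Nlrc5, the class I coactivator, had no read in any of the 27 libraries, a count that allows a share of up to 6.11e-05% of reads in the smallest library. The row of Ctss, a protease of the class II pathway, was likewise at 0 in all 27, so these zeros were not read as absence of the transcript.

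The median spread between rats was larger for class II than for class I or the accessory genes. Among genes with a mean of at least 10 reads, the log2 values, taken after adding 1 to the normalized count, had a median SD of 1.09 over 6 class II genes, 0.51 over 20 class I genes, 0.31 over 8 accessory genes and 0.19 over all 11730 genes. The 4 chains of the presenting molecules had an SD above that of at least 99.2% of all genes, while RT1-DMa and RT1-DMb stood above 76.1% and 67.9%, so the class II median rests on those chains. RT1-O1 had the largest SD of all members, 1.79. RT1-M1-2, at 1.12, lay among the 4 chains and RT1-M1-4, at 1.00, just below them. Both SDs include rn-39 and rn-47, where these genes were nearly empty. Within class I, RT1-M3-1, whose mouse counterpart presents formylated peptides, had the smallest SD, 0.20. Expressed as a coefficient of variation beyond counting error, the medians were 65.5% for class II, 27.4% for class I, 17.1% for the accessory genes and 10.8% for all genes. By a chi-square test of dispersion, with p-values adjusted by Benjamini-Hochberg, 32 of 34 members varied more than reads alone would, against 89.8% of all genes tested, so the share itself sets them little apart. RT1-S2 and Psmb9 did not pass, with adjusted p = 0.23 and adjusted p = 0.094.

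**Figure D1:**
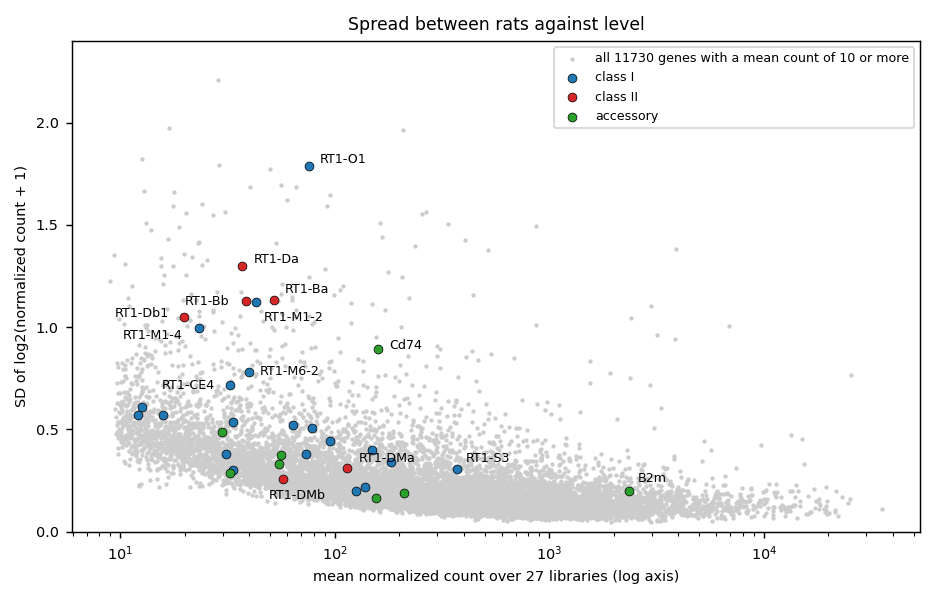
Each point is 1 gene with a mean of at least 10 reads, placed by its mean normalized count over 27 libraries (x, log axis) and the SD of its log2(normalized count + 1) (y). Grey points are all 11730 genes and coloured points are 20 class I, 6 class II and 8 accessory genes, and RT1-O1 (SD 1.79) and the 4 class II chains (SD 1.05 to 1.30) stand above most genes of like level.

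Because MHC genes are polymorphic, each gene was also asked whether its libraries fell into 2 separated levels, that is, a largest gap of at least 1 on the log2 scale with 3 or more libraries on each side. None of the 34 members did, against 0.171% (20) of all 11730 genes. RT1-Da came closest, with a gap of 0.77 that set 4 libraries apart from 23, followed by RT1-O1 with a gap of 0.75. Without libraries rn-12 and rn-20, which hold the most 18S ribosomal RNA, RT1-O1 reached 1.04 and was then the only member past the limit.

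A pair of class I genes was nearly silent in the same 2 rats, a pattern noticed after the values were seen and therefore given without a test. RT1-M1-2 had 3 reads in rn-39 and 4 reads in rn-47, but 20 to 95 reads in the other 25 libraries. RT1-M1-4 had 1 read in rn-39 and 3 reads in rn-47, but 10 to 44 reads elsewhere. Both libraries were among the deeper 11, and for both genes they lay far below the rest, with gaps of 2.28 and 1.95 on the log2 scale to the next library. Of 11730 genes, 22 had these as their 2 lowest libraries, and RT1-M1-2 and RT1-M1-4 were the only 2 with a gap of 1.5 or more. Whichever libraries were lowest, 3 genes had their 2 lowest at least 1.5 below the next. In GRCr8 the genes are neighbours, with only the pseudogenes RT1-M1-3-ps and Trim39-ps listed between them. They belong to 1 family, so reads of one may have been counted on the other.

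The 3 libraries with the highest numbers shared another set of low class I genes, again noticed after the values were seen. RT1-CE10 had normalized counts of 35.3, 31.5 and 42.1 in rn-52, rn-53 and rn-54, and from 51.02 through a median of 76.7 to 132 in the other 24. RT1-T24-4 had 34.5, 44.1 and 47.2 in these libraries and from 51.9 through 80.6 to 105 in the others. RT1-A2 had 125, 132 and 112 there, with all 3 below the other 24, though rn-53 only narrowly. Of 11730 genes, 7 (0.0597%) had these as their 3 lowest libraries, and 3 of the 7 were RT1-A2, RT1-CE10 and RT1-T24-4. The libraries were picked for this pattern, so that share is no test of it. With TMM factors, an alternative added after seeing the data, 6 genes had them as their 3 lowest and RT1-A2 was no longer included. RT1-M1-2 and RT1-M1-4 were not low in these libraries.

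**Figure D2:**
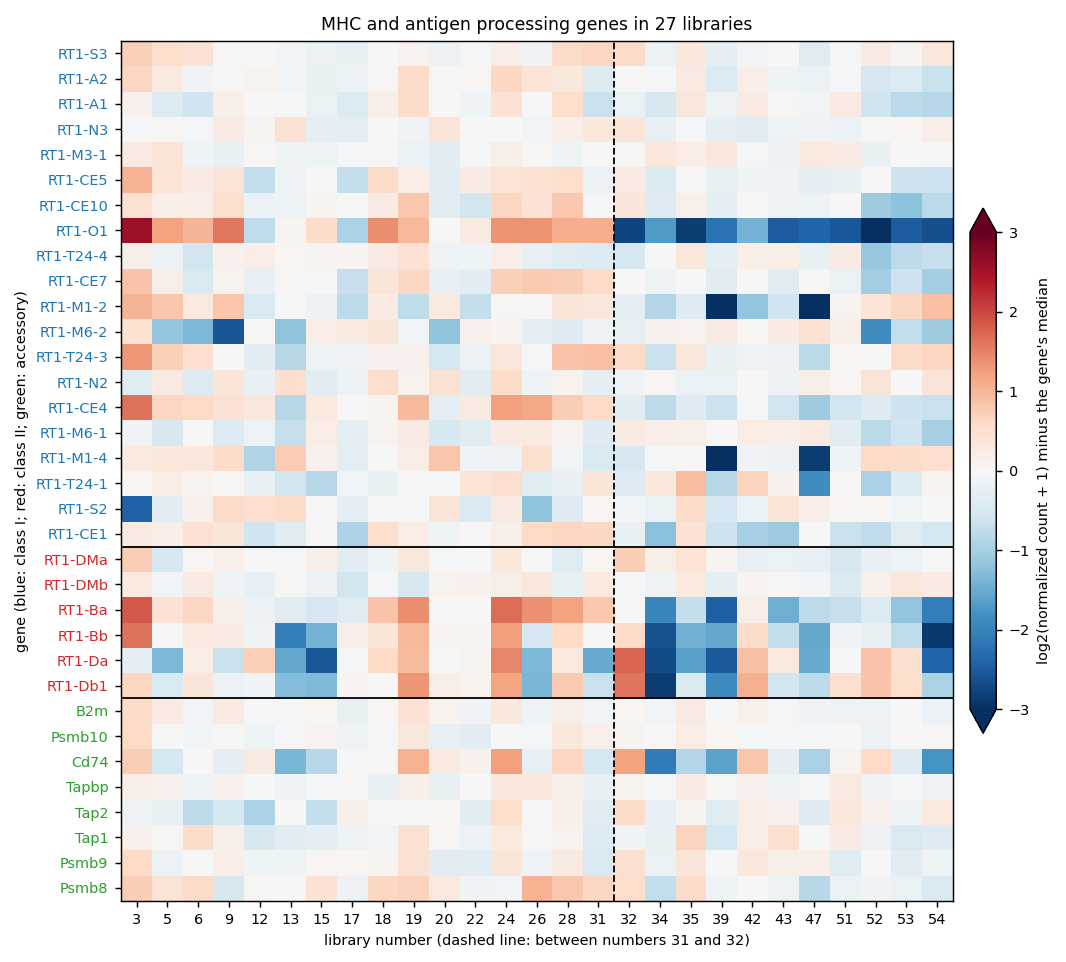
Rows are the 34 members with a mean of at least 10 reads (blue class I, red class II, green accessory), columns are the 27 libraries in order of number, and colour is log2(normalized count + 1) minus the median of the gene, cut at 3 in either direction. RT1-O1 changes at the dashed line between numbers 31 and 32, RT1-M1-2 and RT1-M1-4 are dark blue in rn-39 and rn-47, and the class II chains follow the pattern of Cd74.

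The libraries numbered from 32 were compared with those up to 31, since depth differs between these sets. Of 34 members tested, 8 were lower in the later numbers, against 9.18% of all genes, and 0 were higher, against 8.85% (edgeR quasi-likelihood test, adjusted p under 0.05), so that 2112 of 11716 genes (18%) differed in either direction. With each library left out in turn, 5 to 10 members were lower, and only 5 without rn-19, rn-28, rn-34, rn-52 or rn-54, when RT1-CE5, RT1-CE10 and Psmb8 no longer passed. RT1-O1 led. Its normalized counts ran from 29.3 through a median of 122 to 355 in the 16 libraries up to 31 and from 5.37 through 9.38 to 21.1 in the 11 from 32. Every later library was below every earlier one, and rn-17, at 29.3, was the lowest of the earlier set. The log2 difference of RT1-O1 was -3.48 ± 0.33 (SE) with an edgeR adjusted p = 1.9e-07. Number, depth and whatever else set the libraries apart cannot be told apart here.

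RT1-CE4 ran from 14.8 through 39.3 to 87.2 in the earlier libraries and from 12.5 through 18.1 to 26.1 in the later ones, with a log2 difference of -1.16 ± 0.20 (edgeR adjusted p = 1.5e-04). Its ranges overlapped, as rn-13 and rn-20 of the earlier libraries fell inside the later range. RT1-Ba ran from 29.3 through 61.6 to 154 and from 6.97 through 24.2 to 48.7, with a log2 difference of -1.60 ± 0.31 (edgeR adjusted p = 4.8e-04). The remaining 5 were class I genes of the CE group, RT1-CE1, RT1-CE7, RT1-CE10 and RT1-CE5, and the immunoproteasome gene Psmb8, with log2 differences from -0.71 to -0.42. RT1-A2 just missed the threshold, with a log2 difference of -0.32 ± 0.12 (edgeR adjusted p = 0.054). RT1-A2 passed by DESeq2's Wald test and when rn-6, rn-13, rn-15, rn-17, rn-22, rn-31, rn-32, rn-35 or rn-42 was left out. Among the other class II chains, RT1-Bb had a log2 difference of -0.92 ± 0.35 with an edgeR adjusted p = 0.061. It passed by DESeq2's Wald test and when rn-13, rn-15, rn-26, rn-32 or rn-42 was left out. RT1-Da was at 0.08 ± 0.43 and RT1-Db1 at 0.06 ± 0.37. Outside the MHC, Spi1, a transcription factor of myeloid cells, and Mrc1, a macrophage marker, were also lower in the later libraries. Their mean normalized counts were 131 against 781 and 73.9 against 212, and their part in these differences was not tested. Mrc1 was the 1 of 3 macrophage markers tested that differed, as Lyve1 and F13a1 did not pass (edgeR adjusted p = 0.67 and 0.57). Of 8 microglial markers, 0 differed.

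**Figure D3:**
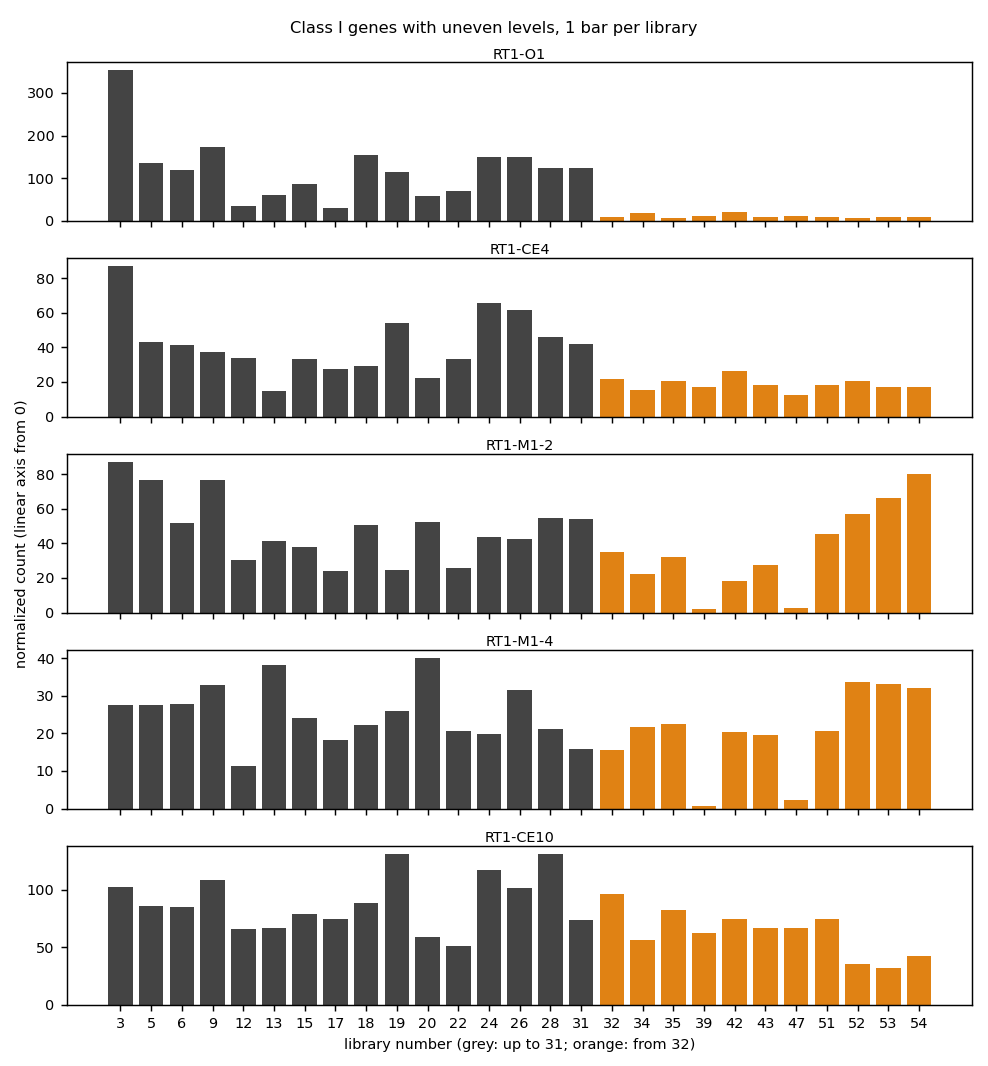
Bars are normalized counts of 5 class I genes (linear axis from 0) in each of the 27 libraries, dark grey for numbers up to 31 and orange for numbers from 32. RT1-O1 lies between 5.37 and 21.1 in all orange libraries, RT1-M1-2 and RT1-M1-4 are nearly empty in rn-39 and rn-47, and RT1-CE10 is lowest in rn-52 to rn-54.

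To ask which genes moved with the class II machinery, counts of all genes were regressed on the level of Cd74 (log2, in SD units) with the library set as a covariate. Of 35 members tested, 4 rose with Cd74, against 2.71% of all genes, and 0 fell, against 0.0669%, so that 2.78% of all genes passed in either direction (edgeR quasi-likelihood test, adjusted p under 0.05). All 4 were chains of the presenting class II molecules. RT1-Da rose by a log2 slope of 1.22 ± 0.10 (SE) per SD of Cd74 (edgeR adjusted p = 7.2e-09), and its partner RT1-Db1 by 1.02 ± 0.08 (edgeR adjusted p = 1.1e-09). RT1-Bb rose by 0.94 ± 0.08 (edgeR adjusted p = 7.2e-09) and its partner RT1-Ba by 0.65 ± 0.11 (edgeR adjusted p = 1.2e-04). The chains of the peptide exchanger stayed out, with slopes of 0.07 ± 0.06 for RT1-DMa and -0.00 ± 0.05 for RT1-DMb (edgeR adjusted p = 0.80 and 0.99). Of 22 class I genes, 0 passed, and RT1-CE4 came nearest at 0.29 ± 0.09 with an edgeR adjusted p = 0.089. RT1-CE4 passed when rn-20, rn-26 or both rn-12 and rn-20 were left out, and without the library set as a covariate (edgeR adjusted p = 0.039). B2m had a slope of 0.07 ± 0.04 and did not pass.

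The class II slopes held inside each library set. Within the 16 libraries up to 31 the slopes were 0.91 for RT1-Da, 0.80 for RT1-Db1, 0.75 for RT1-Bb and 0.52 for RT1-Ba, and RT1-Ba alone missed the threshold there (edgeR adjusted p = 0.067). Within the 11 from 32 they were 1.51, 1.23, 1.12 and 0.77, and all 4 passed. These slopes are per SD within each set, and a term for the difference in slope between the sets called 0 of 35 members and 0 of 12107 genes with edgeR, with 1 member and 1875 genes at an unadjusted p under 0.05.

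**Figure D4:**
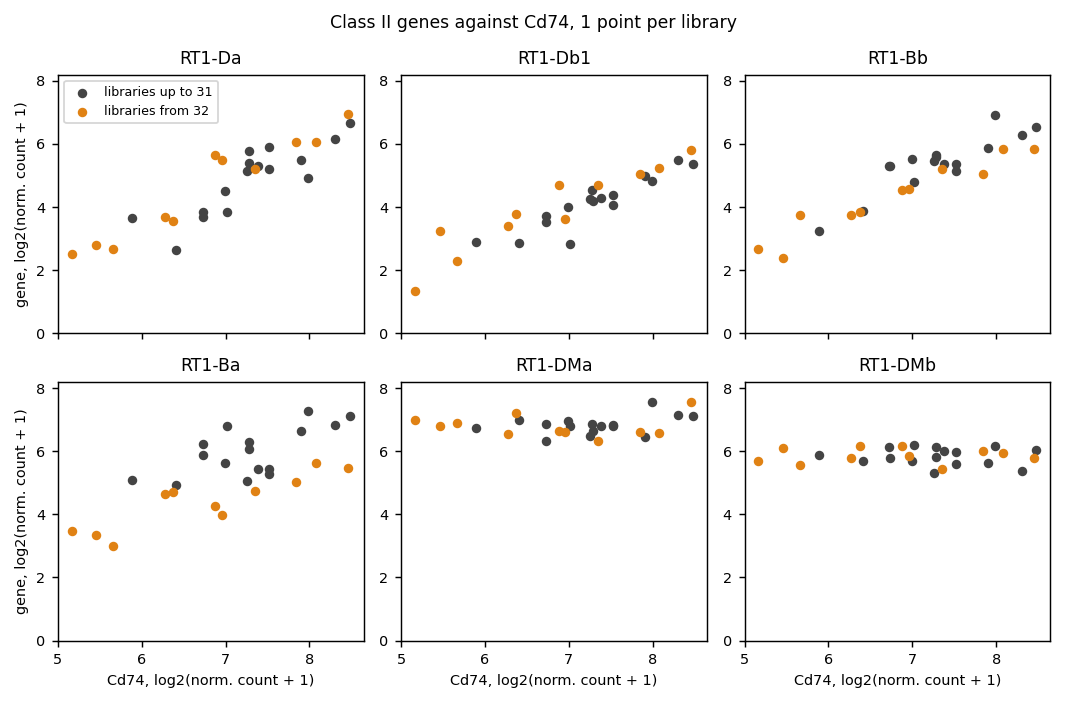
Each point is 1 library, placed by log2(normalized count + 1) of Cd74 (x) and of the class II gene named above the panel (y), in dark grey for numbers up to 31 and orange for numbers from 32. RT1-Da, RT1-Db1, RT1-Bb and RT1-Ba climb with Cd74 in both colours, with orange points lower for RT1-Ba, while RT1-DMa and RT1-DMb stay level.

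Correlations across rats were computed for 11 pairs of genes, with two-sided permutation tests and Benjamini-Hochberg adjustment over the 11. The 3 pairs of presenting class II genes passed by both measures. Cd74 with RT1-Da gave r = 0.904 and rho = 0.875, RT1-Da with RT1-Db1 gave r = 0.896 and rho = 0.868, and RT1-Ba with RT1-Bb gave r = 0.813 and rho = 0.832. Each had a permutation p = 1e-05, the smallest these permutations can give (adjusted p = 3.7e-05). Their r was 0.849, 0.868 and 0.722 within the libraries up to 31, 0.963, 0.914 and 0.819 within those from 32, and 0.877, 0.882 and 0.775 without the 2 libraries farthest from the median. By contrast, the chains of the exchanger, RT1-DMa with RT1-DMb, gave r = 0.26 and rho = 0.216 (permutation p = 0.19 and 0.278, adjusted p = 0.28 and 0.34).

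On the class I side the partners were only loosely tied. Tap1 with Tap2 gave r = 0.246 and rho = 0.306 (permutation p = 0.216 and 0.119, adjusted p = 0.28 and 0.187), and Psmb8 with Psmb9 gave r = 0.239 and rho = 0.277 (permutation p = 0.229 and 0.161, adjusted p = 0.28 and 0.222). Psmb8 with Psmb10 passed by r = 0.436 (permutation p = 0.0225, adjusted p = 0.0495; adjusted p = 0.0533 with TMM factors and 0.051 with a pseudocount of 0.1) but not by rho = 0.321 (permutation p = 0.104, adjusted p = 0.187), and with the library set regressed out it passed by both, at r = 0.471 and rho = 0.487 (permutation p = 0.0126 and 0.0108, adjusted p = 0.0347 and 0.0297). B2m with Cd74 gave r = 0.423 (permutation p = 0.0277, adjusted p = 0.0508) and rho = 0.383 (permutation p = 0.0488, adjusted p = 0.107). Within the library sets, none of these 4 pairs passed by either measure after adjustment.

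With the myeloid markers, Cd74 and Mrc1 gave r = 0.502 (permutation p = 0.00799, adjusted p = 0.022) and rho = 0.441 (permutation p = 0.022, adjusted p = 0.0606). Without the 2 farthest libraries r stayed positive at 0.356 but no longer passed, so the call, by r alone, rests on them, and within the library sets r was 0.54 and 0.412 with adjusted p = 0.0683 and 0.324. Cx3cr1, a microglial receptor, gave r = -0.198 with Cd74 and r = -0.159 with B2m, rho = -0.154 and rho = -0.00183 (permutation p = 0.324, 0.428, 0.442 and 0.994, adjusted p = 0.356, 0.428, 0.486 and 0.994), and within the libraries from 32 the signs turned, at r = 0.165 and r = 0.654.

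Genes of other cell types also moved with Cd74. All 4 meningeal fibroblast markers rose with Cd74, among them Col1a1, a collagen chain, by 1.10 ± 0.12 and Col1a2 by 1.24 ± 0.14 per SD (edgeR adjusted p under 0.05 for each). Their summed normalized counts spanned 108 to 1727 in the libraries up to 31 and 187 to 1334 in those from 32. Of 5 border macrophage markers tested, Cd163, F13a1 and Pf4 rose, by 0.64 ± 0.12, 0.44 ± 0.09 and 0.49 ± 0.12, against 2.71% of all genes. Mrc1 and Lyve1 did not pass. Cd163 and Pf4 were low, with mean normalized counts of 7.53 and 7.25. The sum of the 6 listed markers, of which Mrc1 had the highest mean (156), ranged from 145 to 476 and from 61.2 to 177 in the 2 library sets. Of 8 microglial markers, 0 rose. Of the dendritic cell list, Flt3 and Zbtb46 were tested, and 0 of the 2 rose. Xcr1, Clec9a and Cd209a of that list had mean normalized counts of 0.36, 2.11 and 0.21. Flt3 and Zbtb46 were therefore not taken as a measure of dendritic cells. Itgax of that list had no read in any library, which was not read as absence. Hba-a1, a globin, rose as 1 of 3 blood markers. Among genes that are not members, those with the lowest adjusted p were Cxcl16, a chemokine of antigen-presenting cells, Foxc2, a transcription factor of the meninges, and Serping1, the C1 inhibitor, followed by Ahnak, Eya2, the unnamed gene 103689932, Nupr1, Islr, Fmod and Bgn, with slopes from 0.39 to 1.38. The part of the fibroblast, macrophage and blood markers in the class II slopes was not tested.

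The same regression on B2m gave a different and less settled picture. Of 35 members tested, 13 rose with B2m, against 8.18% of all genes, and 0 fell, against 7.33%, with 15.5% of all genes passing in either direction. They were 8 of 22 class I genes, 3 of 6 class II genes, and Psmb9 and Psmb10. RT1-A2 rose by 0.22 ± 0.04 per SD of B2m (edgeR adjusted p = 0.0019) and RT1-A1 by 0.22 ± 0.06 (edgeR adjusted p = 0.024). RT1-O1 rose by 0.46 ± 0.11 (edgeR adjusted p = 0.0063) and Psmb10 by 0.14 ± 0.03 (edgeR adjusted p = 0.0039). RT1-CE3, RT1-CE4, RT1-CE5, RT1-CE7 and RT1-CE10 rose by 0.24 to 0.46, and RT1-Ba, RT1-Bb and RT1-DMa by 0.18 to 0.47. RT1-S3, although the class I gene with most reads, had a slope of 0.12 ± 0.06 with an edgeR adjusted p = 0.13.

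These B2m calls depended on 1 rat. Library rn-3 had the highest B2m level, 3312 normalized counts against 1936 to 3037 in the other 26, and it was also the highest library for 14 of 34 members, against 19.8% of all genes. Without rn-3 the calls fell from 13 to 1, RT1-A2, and from 1866 to 100 over all genes. Without rn-19, the second highest library for B2m, 7 were left, against 1125 of 12114 genes. Within the 16 libraries up to 31, 12 of 34 members passed, against 2258 of 11934 genes. Within the 11 from 32, 0 of 35 passed with edgeR, as did 0 of 12256 genes in all, with 6 members and 804 genes at an unadjusted p under 0.05. The slopes of the 13 were all positive there. They were 0.20 for RT1-A2, 0.19 for RT1-A1, 0.23 for RT1-CE10, 0.46 for RT1-CE3 and 0.20 for RT1-DMa. Those of RT1-O1, Psmb10, RT1-CE5 and RT1-CE4 were 0.15, 0.06, 0.11 and 0.16. These slopes are per SD within the set, so their sizes are not compared with those over all libraries. A term for the difference in slope, from 32 against up to 31, used SD over all libraries. It was 0.08, 0.07, 0.09, 0.23 and 0.12 for RT1-A2, RT1-A1, RT1-CE10, RT1-CE3 and RT1-DMa. For RT1-O1, Psmb10, RT1-CE5 and RT1-CE4 it was -0.29, -0.06, -0.10 and -0.08, and each value was smaller than its SE. The term called 0 members, with 2 at an unadjusted p under 0.05. The genes with the lowest adjusted p over the whole table were not MHC genes but Slc41a2, which fell, and the ribosomal protein genes Rpl13a, Rps3a, Rpsa, Rpl7 and Rps4x, with Laptm4a, Rhoc, Mdk and Ostf1, which rose by 0.12 to 0.20. Markers of several cell types moved with B2m as well. The microglial genes Aif1 and C1qa (2 of 8), the endothelial genes Cldn5 and Pecam1 (2 of 3) and the macrophage gene Mrc1 (1 of 5) rose. So did the fibroblast gene Lum (1 of 4), the astrocyte gene Gfap (1 of 3) and the myelin gene Mbp (1 of 3). The neuronal genes Syt1 and Slc17a7 (2 of 4) and Zbtb46 of the dendritic cell list (1 of 2) fell. The endothelial markers summed to 1453 to 2572 normalized counts per library, and the part of these cell types was not tested.

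**Figure D5:**
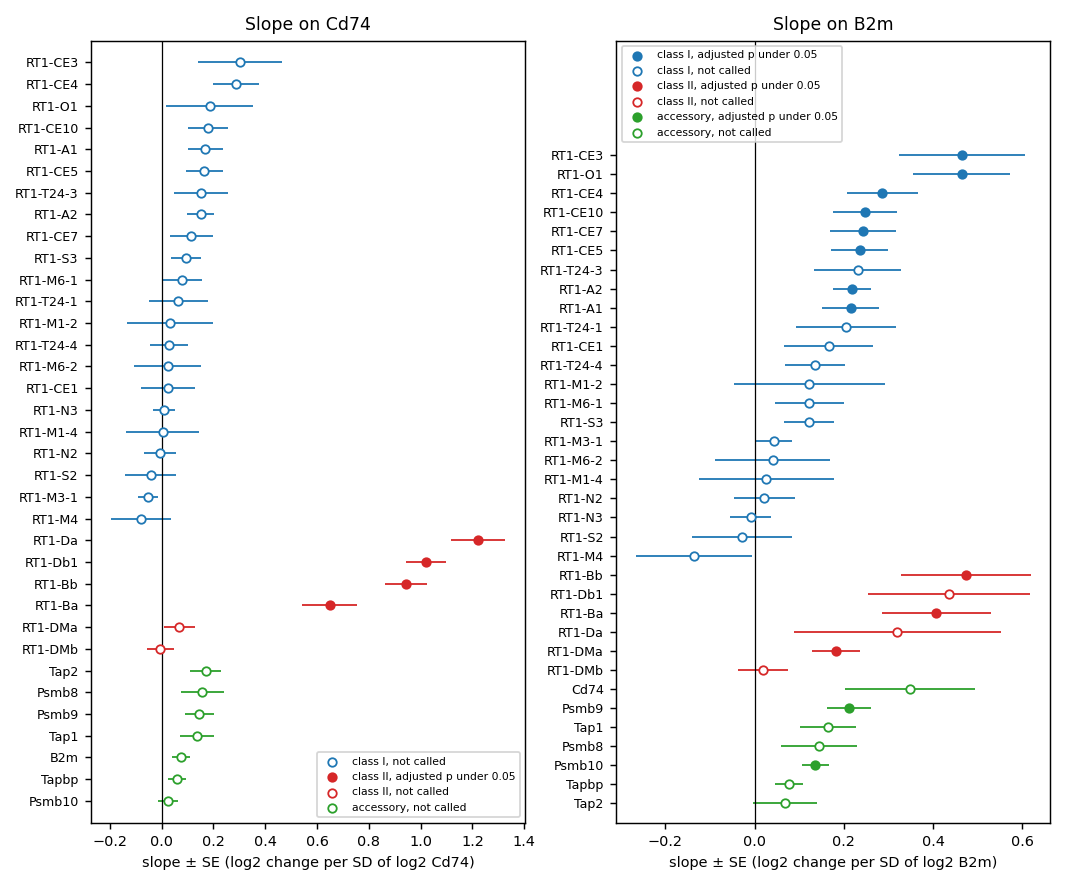
Points are log2 slopes of 35 members per SD of log2 Cd74 (left) and per SD of log2 B2m (right), with bars of 1 SE, in blue for class I, red for class II and green for accessory genes, filled where the edgeR adjusted p was under 0.05. On the left only RT1-Da, RT1-Db1, RT1-Bb and RT1-Ba are filled, and on the right 13 genes of all 3 groups are filled with smaller slopes.

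The other genes of both pathways were examined as lists. Of 12 class I pathway genes (among them chaperones, the trimming peptidase Erap1 and proteasome subunits), 0 rose with Cd74, against 2.71% of all genes, and 1 rose with B2m, against 8.18%, the proteasome activator Psme2, by 0.15 ± 0.04 (edgeR adjusted p = 0.014). In the libraries from 32, 5 of the 12 were lower, against 9.18% of all genes, among them the chaperones Calr, Canx and Pdia3 and the activator Psme2 with log2 differences from -0.34 to -0.14. Of 11 class II pathway genes tested, 2 were lower there, Spi1 by a log2 difference of -2.57 ± 0.27 (edgeR adjusted p = 3.3e-07) and the thiol reductase Ifi30 by one of -0.37 ± 0.12 (edgeR adjusted p = 0.034). Among these 11, the protease Ctsh was the 1 that rose with Cd74, by 0.11 ± 0.03 (edgeR adjusted p = 0.048), and Ctsh, Lgmn, Ifi30 and Spi1 rose with B2m. The class II factors Rfx5, Rfxap, Rfxank and Irf8 passed in neither. Of 12 interferon-induced genes, Gbp2 was the 1 that rose with Cd74, by 0.21 ± 0.06 (edgeR adjusted p = 0.032), 4 rose with B2m, Isg15, Ifit3, Mx1 and Rsad2, and 0 differed between the library sets. With lists of this size, a count of 1 or 2 lies near the share over all genes and is not a result about the list. The counts rising with B2m were 4 of 11 class II pathway and 4 of 12 interferon-induced genes, against 8.18% of all genes. Over all genes the B2m calls fell from 1866 to 100 without rn-3, and were 0 of 12256 within the libraries from 32. Which listed genes stayed called without rn-3 was not examined.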

How the data were processed

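The authors deposited raw counts per gene. The submitters' processing notes name Trimmomatic, STAR and HTSeq, while versions, genome build and strand setting are not given in the sources used here. The paper names the NEBNext Ultra II kit and the labels a TruSeq kit. Rows are NCBI gene IDs, named here from RefSeq GRCr8, and 436 rows are split over loci. All 27 columns were used. Rats are separate animals, replicates of 1 group. Members, gene lists, motifs and tests were chosen with earlier results of these data known. Named genes are the members, the listed pathway and marker genes, and the 10 non-members with the lowest adjusted p per regression, and 1 listed pathway gene is not reported here.

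Counts were divided by DESeq2 size factors (DESeq2 1.42.0). The pseudocount of 1 makes changes of low genes look smaller on the log2(normalized count + 1) scale. Tests across all genes used edgeR 4.0.16 (TMM, filterByExpr, quasi-likelihood), SE being the size of the log2 change divided by the root of F. Simulated counts for 11716 genes with 200 changed by 0.5 (log2) gave 182 recovered and 10 false calls for the library sets, 200 and 6 for Cd74, and 200 and 16 for B2m. Correlations used 100000 permutations. Intervals and floors cover counting error only, as there are no molecular identifiers. Alternatives were other scalings, filters, pseudocounts, DESeq2's Wald test, leaving out libraries, and fits within the library sets. Leaving out each library in turn and the slope-difference term were added after seeing the data. Software was R 4.3.3 and Python 3.11.15.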

Additional observations from a re-analysis of the deposited data

How the results depend on the processing

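The counts of members that varied beyond counting, the median SDs of all 3 groups and the 4 members rising with Cd74 stayed within 1.5 times under every alternative run for them, with 3 to 5 members for Cd74. Members with 2 separated levels went from 0 to 1 (RT1-O1) without rn-12 and rn-20. Members lower in libraries from 32 numbered 5 to 10 when each library was left out, and 5 without rn-19, rn-28, rn-34, rn-52 or rn-54, where Psmb8, RT1-CE10 and RT1-CE5 were lost, all near the threshold. Members rising with B2m numbered 1 to 15 when each library was left out (1 without rn-3, 7 without rn-19) and 0 within libraries from 32. The rho of Cd74 with Cx3cr1 turned from -0.154 to 0.309 within libraries from 32. That of B2m with Cx3cr1 turned from -0.00183 to 0.0153 with TMM factors, 0.22 without the 2 farthest libraries and 0.482 within libraries from 32, none of them past the threshold. With the library set regressed out, Psmb8 with Psmb10 passed at rho = 0.487, which raised the pairs that pass from 3 to 4. The cause of these changes was not tested. No paired analysis was possible because the rats form 1 group. Genes under a mean of 10 reads are limited by depth, and the uncertain split of reads between close RT1 copies limits each single class I value.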
